A study of Mus musculus with 4 samples.

Results

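Genes of the cell cycle and of DNA repair were examined in group 3 innate lymphoid cells (ILC3s), which are tissue lymphocytes without antigen receptors that secrete IL-22 in the gut. The genes were chosen by symbol alone: cyclins and cyclin-dependent kinases, Cdc genes other than *Cdc42*, origin and Mcm proteins, kinesins, condensin and cohesin subunits, centromere (Cenp) and centrosome (Cep) proteins, subunits of the anaphase-promoting complex, Aurora and Bub kinases, *Mki67*, type II topoisomerases, and the main families of repair genes. The deposited table listed 39 such genes among its 2179. Another 30 genes were known by symbol from the rows read here of a sheet of the study, of which only a part was at hand, and they have no value here. The rule thus found 69 genes in these sources.

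Cells without lineage markers but with GFP were sorted from the lamina propria of the large intestine of Rag1-/- littermates with a GFP reporter of ILC3s. These mice lack mature T and B cells. Littermates received PBS or 1 µg of α-DR3 (4C12), an agonistic antibody against death receptor 3, the receptor of TL1A, and cells were taken on day 3. Each group had 2 libraries, and each library was made from cells pooled over several mice. The table gives for each gene the authors' mean of the 2 libraries of a group and no value of a single library. Values are in FPKM, the fragments of a gene scaled to transcript length and to the total of mapped fragments, so that levels may be compared between genes. Values of single libraries, which the study gives in its supplement, were not used here. No value therefore has a replicate error, no test was run, and genes are described as higher or lower by the size of the difference. The table holds only genes that the authors' own comparison had passed at a p-value limit of 0.05 and whose mean was over 1 FPKM in either group. A gene missing from it was therefore either low or not past that limit, and is not analysed here. Because RNA of whole sorted populations was sequenced, fewer cells of a kind and less RNA per cell cannot be told apart.

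As background, a dividing cell passes from G1, in which D-type cyclins with Cdk4 or Cdk6 release E2F transcription factors from the Rb protein, into S phase, in which origins bound by the origin recognition complex are copied by DNA polymerases. In mitosis the condensed chromosomes attach by their centromeres to a spindle that grows from the centrosomes, and the anaphase-promoting complex then lets the chromosomes separate. Mismatches, bulky lesions, crosslinks and breaks in DNA are mended by separate sets of repair proteins. Lymphocytes in tissue are mostly at rest, and genes of S phase and mitosis are transcribed mainly in cells that cycle.

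The promoters of 5 genes, all with a lower mean in α-DR3, are shown as examples of the short elements through which such phase-specific transcription is known to run. Capitals mark an E2F type element (TTTCGCGC, TTTGGCGC, TTTCCCGC or TTTGCCGC) in the promoters of *Orc1* and *Pola1*, genes of replication origins and of DNA synthesis. In those of *Top2a*, *Mki67* and *Cenpn*, which act in mitosis, they mark the cell cycle homology region TTTGAA. Both strands were searched, and an element on the other strand appears as its reverse complement. Each sequence is the 250 bases before the transcription start of RefSeq on GRCm38.p6, written in the direction of the gene, at chr4:108579204-108579453 (+) for *Orc1*, chrX:93632156-93632405 (-) for *Pola1*, chr11:99024190-99024439 (-) for *Top2a*, chr7:135716380-135716629 (-) for *Mki67* and chr8:116921490-116921739 (+) for *Cenpn*.
Orc1: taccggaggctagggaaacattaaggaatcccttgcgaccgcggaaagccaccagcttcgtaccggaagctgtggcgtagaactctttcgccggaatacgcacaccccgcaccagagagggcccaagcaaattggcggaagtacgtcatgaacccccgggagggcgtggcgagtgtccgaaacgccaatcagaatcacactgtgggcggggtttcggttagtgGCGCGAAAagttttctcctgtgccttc
Pola1: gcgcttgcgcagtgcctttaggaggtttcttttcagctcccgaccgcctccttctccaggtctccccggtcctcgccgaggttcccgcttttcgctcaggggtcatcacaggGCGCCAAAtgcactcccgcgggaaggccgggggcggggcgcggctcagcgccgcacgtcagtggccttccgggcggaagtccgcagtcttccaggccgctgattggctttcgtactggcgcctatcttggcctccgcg
Top2a: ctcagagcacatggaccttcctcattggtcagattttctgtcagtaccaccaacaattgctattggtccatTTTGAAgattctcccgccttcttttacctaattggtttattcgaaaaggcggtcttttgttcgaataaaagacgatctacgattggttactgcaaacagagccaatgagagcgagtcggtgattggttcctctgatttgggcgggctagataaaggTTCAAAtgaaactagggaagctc
Mki67: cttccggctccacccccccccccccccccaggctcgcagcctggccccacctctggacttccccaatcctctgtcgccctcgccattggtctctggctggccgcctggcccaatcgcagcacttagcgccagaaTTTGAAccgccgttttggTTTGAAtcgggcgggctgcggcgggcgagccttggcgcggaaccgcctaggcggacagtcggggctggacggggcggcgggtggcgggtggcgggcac
Cenpn: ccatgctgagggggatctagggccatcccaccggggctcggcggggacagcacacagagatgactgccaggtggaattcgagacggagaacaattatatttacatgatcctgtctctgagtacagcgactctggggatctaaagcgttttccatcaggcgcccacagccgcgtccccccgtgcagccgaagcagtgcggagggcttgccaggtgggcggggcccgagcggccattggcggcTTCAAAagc

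In windows of 300 bases that run from 250 before to 50 after the start, TTTGAA was present for 10 of the 33 listed genes with a promoter entry (30.3%), against 20.2% of all 27025 genes of the promoter table and 15.4% of the listed genes. It was about as frequent in higher genes (28.6%, *Cdc14a* and *Cdk16*) as in lower ones (30.8%). Within the mitotic genes it was present for 6 of 10, namely *Cdc14a*, *Cenpn*, *Kif20b*, *Mki67*, *Smc2* and *Top2a*, and *Cdc14a* has several start sites and so several windows. An E2F type element was present for *Orc1*, *Pola1* and *Msh3* (9.09%), against 2.60% of all genes and 4.56% of the listed genes. CCAAT, the element bound by NF-Y, was present for 17 of the 33 (51.5%), against 41.1% of all genes and 44.1% of the listed genes. These matches describe the letters of the windows and say nothing about binding in ILC3s. The promoters of *Ccnd1*, *Cdk17*, *Kif21b*, *Rad50* and *Rad9* were among those with no entry.

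After α-DR3 treatment most of the listed cell cycle and DNA repair genes had a lower level in ILC3s. Of the 39 genes 31 had the lower mean in α-DR3 (79.5%), whereas 45.4% of all listed genes did, and 8 had the higher mean (20.5%), against 54.6% of all listed genes. The differences were modest. On the scale of log2(FPKM + 1), the 31 lower genes lay between -0.95 and -0.39, and 7 of the 8 higher genes lay between 0.49 and 0.70. The remaining higher gene was *Ccnd1*, the gene of cyclin D1, at 3.37. The median difference of the 39 genes was -0.56, against 0.36 for all listed genes. A difference of 1.5-fold on this scale was passed by 14 lower genes (35.9%), against 30.4% of all listed genes, and by 5 higher genes (12.8%), against 32.1% of all listed genes. With this pseudocount the share of lower genes past 1.5-fold was thus near that of the whole table, unlike the share of lower genes of any size. It was not near it by the plain ratio of the means, in which low genes are not damped. By that ratio 27 genes were lower past 1.5-fold (69.2%), against 38.3% of the whole table, and 7 were higher (17.9%), against 37.0%.

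**Figure D1:**
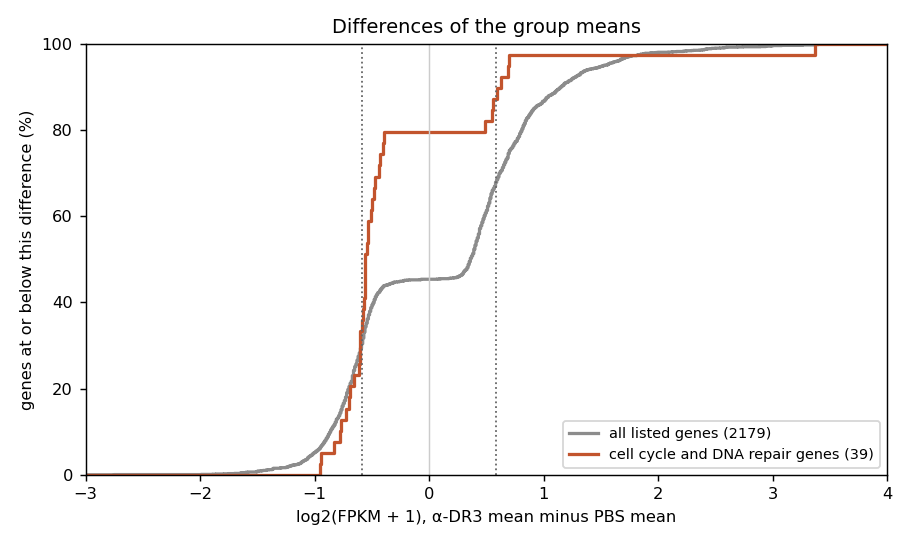
Cumulative share of genes (vertical axis, percent) at or below each difference of the group means on the log2(FPKM + 1) scale (horizontal axis), for all 2179 listed genes in grey and the 39 cell cycle and DNA repair genes in orange, with dotted lines at 1.5-fold in either direction. The orange line reaches 79.5% before 0 and the grey line 45.4%, and a single gene, *Ccnd1*, lies far to the right at 3.37.

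The levels of the 39 genes spanned a wide range. *Cdk11b* was the most abundant, with 291 FPKM in PBS, followed by *Cdk4* with 112. In PBS 14 genes were over 10 FPKM, and 14 genes were under 5 FPKM in both groups. The median level was 7.0 FPKM in PBS and 5.90 in α-DR3, and the median over all listed genes was 9.87 and 9.94. As to the number of reads behind the values, the authors' mean log2 CPM of the 39 genes ran from 1.68 for *Cenpi* to 8.58 for *Cdk11b*, with a median of 4.05 against 4.56 for all listed genes. The precision of genes such as *Cenpi*, *Cdk20* (1.85) and *Kif5c* (1.86 on that scale) is thus the poorest. Lower genes were also somewhat longer, with a median gene length in the table of 7063 bases against 5202 for the 8 higher genes, and 5321 and 4544 for all lower and all higher listed genes.

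**Figure D2:**
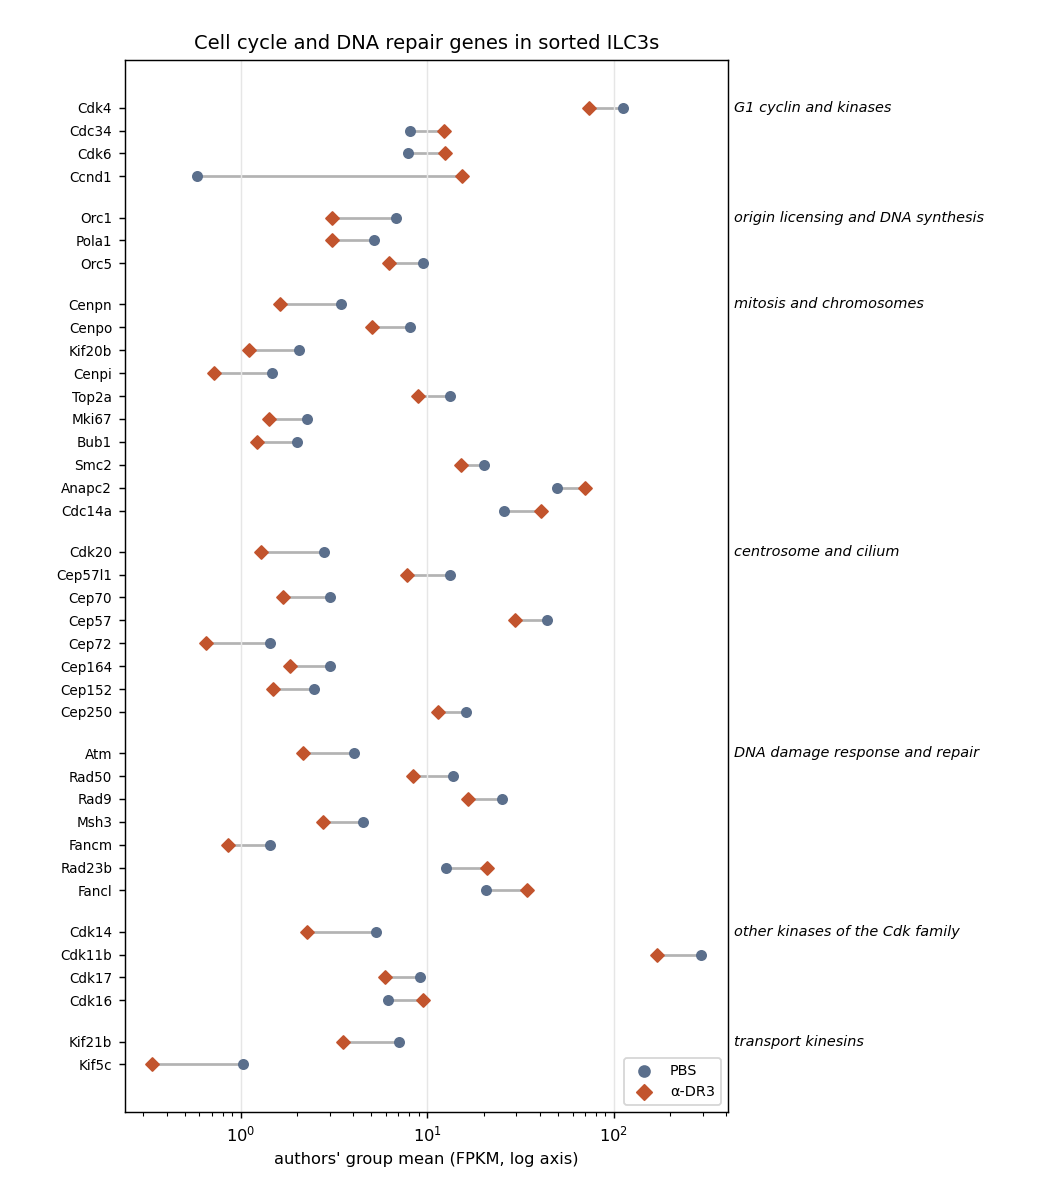
Authors' group means in FPKM (horizontal log axis) of the listed genes (rows, all but 1 of the 39) by role, with circles for PBS and diamonds for α-DR3, each the authors' mean of 2 libraries. Diamonds lie to the left of circles in every row of the origin, centrosome and kinesin groups, and the longest line is that of *Ccnd1*, from 0.58 to 15.3.

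Of the 4 listed genes of G1, *Ccnd1*, *Cdk6* and *Cdc34* were higher and *Cdk4*, the most abundant, was lower. *Ccnd1* (ENSMUSG00000070348.4; chromosome 7 of GRCm38, 144929931 to 144939925, minus strand) had a mean of 0.58 FPKM in PBS and 15.3 in α-DR3, a 26.4-fold higher level. It was the only one of the 39 genes under 1 FPKM in PBS, and it was the largest difference among them. Its partner kinases were listed in opposite directions. *Cdk4* (ENSMUSG00000006728.6; chromosome 10, 127063534 to 127067920) had 112 FPKM in PBS and 73.8 in α-DR3, a difference of -0.60 on the log2 scale. *Cdk6* (ENSMUSG00000040274.5; chromosome 5, 3341485 to 3531008) had 7.90 FPKM in PBS and 12.4 in α-DR3, a difference of 0.59. Both kinases thus sat just past the 1.5-fold limit, on opposite sides.

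Because FPKM is per length, these transcripts may be set against each other. *Cdk6* made up 6.58% of the summed *Cdk4* and *Cdk6* level in PBS and 14.4% in α-DR3, while the sum itself was 120.0 FPKM in PBS and 86.1 in α-DR3. *Ccnd1* equalled 0.483% of that sum in PBS and 17.8% in α-DR3. *Cdk4* therefore remained the main transcript of the pair in both groups. *Cdc34*, the ubiquitin-conjugating enzyme of the SCF ligases that remove inhibitors of cyclin-dependent kinases, had 8.06 FPKM in PBS and 12.3 in α-DR3, a difference of 0.55 that stopped short of the limit. *Ccnh*, a cyclin of the kinase that activates other Cdk proteins, has no digit in its symbol and so was not matched by the rule. It stood at 20.8 FPKM in PBS and 14.0 in α-DR3.

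The 3 genes of replication origins and of DNA synthesis that matched the symbol rule, *Orc1*, *Orc5* and *Pola1*, were lower in α-DR3. *Orc1* (ENSMUSG00000028587.11; chromosome 4, 108579423 to 108614833), the largest subunit of the origin recognition complex, had 6.81 FPKM in PBS and 3.07 in α-DR3, 2.22 times lower and a difference of -0.94. *Orc5*, another subunit of that complex, had 9.46 FPKM in PBS and 6.19 in α-DR3. *Pola1*, the catalytic subunit of the polymerase that starts new strands, had 5.20 FPKM in PBS and 3.08 in α-DR3. On the log2 scale *Orc1* and *Pola1* (-0.60) passed 1.5-fold and *Orc5* (-0.54) did not. The promoters of *Orc1* and *Pola1* carry the E2F type elements shown above.

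Of 10 listed genes of mitosis and chromosome structure 8 were lower (80.0%, against 45.4% of all listed genes), with a median difference of -0.47 over the 10. Past 1.5-fold, however, 20.0% were lower, which is less than the 30.4% of all listed genes. The lower genes past it were *Cenpn*, whose product reads the centromeric nucleosome, with 3.46 FPKM in PBS and 1.62 in α-DR3, and *Cenpo*, with 8.12 and 5.07. *Cenpi*, also of the inner kinetochore, had 1.48 FPKM in PBS and 0.72 in α-DR3. All the listed Cenp genes were thus lower.

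*Mki67*, *Top2a*, *Bub1* and *Kif20b* were lower as well. *Mki67*, the gene of the Ki67 antigen, had 2.27 FPKM in PBS and 1.42 in α-DR3, 1.60 times lower. *Top2a*, which untangles sister chromatids, had 13.1 FPKM in PBS and 8.93 in α-DR3, a ratio of 1.47. The spindle checkpoint kinase *Bub1* had 1.995 and 1.22 FPKM, and *Kif20b*, a kinesin of cytokinesis, had 2.05 and 1.11. On the log2(FPKM + 1) scale these genes lay between -0.53 and -0.43, short of the limit. By flow cytometry on a later day, the paper reports a larger percentage of Ki67-positive ILC3s after α-DR3. That is a measure of protein in single cells, whereas the levels here are of RNA and low for *Mki67*. Whether these RNA levels follow the share of dividing cells was not tested.

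*Smc2*, a core subunit of condensin, had 20.2 FPKM in PBS and 15.1 in α-DR3, which at -0.40 was among the smallest differences. Higher in α-DR3 were *Cdc14a* and *Anapc2*. *Cdc14a*, a phosphatase that opposes Cdk phosphorylation, had 25.9 FPKM in PBS and 40.7 in α-DR3, a difference of 0.63 past the limit. *Anapc2*, the cullin subunit of the anaphase-promoting complex, had 49.4 FPKM in PBS and 69.9 in α-DR3, a difference of 0.49. Together these were the most abundant listed genes of the group, and because of them the summed level of the 10 genes was higher in α-DR3, at 146 FPKM against 128, although most of the genes were lower.

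All 8 listed genes of the centrosome and the cilium were lower, with a median of -0.56 and a range from -0.73 to -0.47. *Cep57* was the most abundant of them, with 44.0 FPKM in PBS and 29.6 in α-DR3. Its relative *Cep57l1* had 13.2 FPKM in PBS and 7.74 in α-DR3, a difference of -0.70. *Cep250*, which links the centrioles of a cell, had 16.2 and 11.4 FPKM. The others were expressed at under 5 FPKM in both groups. Among these, *Cdk20*, a kinase of the cilium, had 2.78 FPKM in PBS and 1.29 in α-DR3. *Cep152*, a scaffold of centriole duplication, had 2.48 and 1.495 FPKM. *Cep164*, a protein of the appendages by which a centriole docks to form a cilium, had 3.02 and 1.84, *Cep70* had 3.00 and 1.69, and *Cep72* had 1.43 and 0.65. Only *Cep57l1* and *Cdk20* passed 1.5-fold on the log2 scale (25.0%). Of all listed genes 45.4% were lower by any size and 30.4% lower past 1.5-fold.

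This direction did not extend to every centrosomal gene of the table. By their identifiers 4 more listed genes carry Cep symbols in GENCODE M21 but stand in the table under older symbols, and 3 of the 4 were higher. *Cep85* (listed as *Ccdc21*) had 123 FPKM in PBS and 209.7 in α-DR3, more than any of the 8 genes above. *Cep83* (*Ccdc41*) had 3.88 and 6.86 FPKM, *Cep85l* (*Gm9766*) 3.96 and 6.27, and *Cep41* (*Tsga14*) 4.60 and 3.19. With them 9 of 12 genes of this kind were lower, and 32 of 43 listed genes in all. By identifier these 43 genes were 15.7% of the 274 annotated protein-coding genes with a matching symbol, and the whole table held 9.72% of all 21924 protein-coding genes. Both shares count annotated genes whether or not ILC3s express them. They were not matched for expression, so they do not show that genes of this kind were listed more often than other expressed genes.

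In DNA repair, the break sensors and the mismatch gene *Msh3* were lower and a pair of genes of other routes higher. *Atm* (ENSMUSG00000034218.8; chromosome 9, 53439149 to 53536740), the kinase that answers double-strand breaks, had 4.07 FPKM in PBS and 2.15 in α-DR3, 1.90 times lower. *Rad50*, of the complex that senses such breaks and activates that kinase, had 13.8 FPKM in PBS and 8.36 in α-DR3. *Rad9*, of the checkpoint clamp, had 25.3 and 16.6 FPKM, which at -0.58 stopped just short of the limit. *Msh3*, of mismatch repair, had 4.54 FPKM in PBS and 2.76 in α-DR3, a difference of -0.56.

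The Fanconi genes, which act on crosslinked DNA, were listed in opposite directions. *Fancl* (ENSMUSG00000004018.3; chromosome 11, 26386135 to 26471876), the ubiquitin ligase of the pathway, had 20.7 FPKM in PBS and 34.3 in α-DR3, a difference of 0.70. *Fancm*, the translocase that brings the pathway to DNA, had 1.44 and 0.86 FPKM, a difference of -0.39. The other higher repair gene was *Rad23b* (ENSMUSG00000028426.9; chromosome 4, 55350043 to 55392237), which holds the lesion sensor Xpc, with 12.6 FPKM in PBS and 20.8 in α-DR3, a difference of 0.69. Over the 8 repair genes the median was -0.57, and the summed level was nearly the same in both groups, at 101 FPKM in PBS and 97.7 in α-DR3.

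Several listed kinases carry a Cdk name but act chiefly outside the division cycle. *Cdk11b* (ENSMUSG00000029062.8; chromosome 4, 155624854 to 155649938), a kinase of transcription and splicing and the most abundant of the 39 genes, had 291 FPKM in PBS and 170 in α-DR3, a difference of -0.78. *Cdk14* (ENSMUSG00000028926.8; chromosome 5, 4803391 to 5420312), a membrane-linked partner of cyclin Y, had 5.32 and 2.26 FPKM, and its difference of -0.95 was the lowest of all 39. Their relatives *Cdk17* and *Cdk16* were listed in opposite directions. *Cdk17* had 9.15 FPKM in PBS and 5.90 in α-DR3 (-0.56), and *Cdk16* had 6.15 and 9.52 (0.56). The transport kinesins *Kif21b*, with 7.01 FPKM in PBS and 3.51 in α-DR3, and *Kif5c*, with 1.03 and 0.34, were both lower and move cargo rather than chromosomes. With them 14 of the 39 genes were lower past 1.5-fold (35.9%). Without them 12 were, a share nearer still to the 30.4% of all listed genes.

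Partner genes of the same processes, from lists that do not depend on the symbol rule, were set beside these. Of 140 other cell cycle genes 24 were listed, 20 lower and 4 higher (16.7% higher), with 12 lower and 2 higher past 1.5-fold and a median of -0.60. Of 141 other DNA repair genes 16 were listed, 11 lower and 5 higher (31.2% higher), with 6 lower and 2 higher past 1.5-fold and a median of -0.56. Of all listed genes 54.6% were higher, 30.4% were lower past 1.5-fold and 32.1% higher past it.

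The cell cycle partners over 5 FPKM with the largest differences included genes of replication, of the kinetochore and of the restraint of proliferation. *Prim1*, the primase that works with *Pola1*, had 12.4 FPKM in PBS and 6.65 in α-DR3. *Gins2*, of the replicative helicase, had 11.8 and 6.33, and *Rfc5*, of the loader of the sliding clamp, had 30.1 and 17.9. Not every listed gene of DNA synthesis was lower to this degree, as other genes, named after their values were seen, show. *Rfc1*, also of the clamp loader, had 14.4 FPKM in PBS and 12.2 in α-DR3, and *Tk1*, a kinase that makes a DNA precursor, was higher, with 10.0 and 13.4. Of the kinetochore and the centromere, *Mis12* had 10.2 FPKM in PBS and 5.68 in α-DR3, and *Cdca8*, of the complex that carries Aurora B, had 5.64 and 2.56. Lower as well were *Btg2* (695 and 358 FPKM) and *Tob2* (208 and 129), related proteins that restrain proliferation and are abundant in these cells. *Nek6*, a mitotic kinase, was higher, with 2.28 FPKM in PBS and 8.31 in α-DR3, the largest difference of the list. Genes of opposite effect on division were therefore among the lower ones.

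Among the repair partners, *Apex1*, the endonuclease of base excision repair, was higher, with 24.3 FPKM in PBS and 53.4 in α-DR3, and so was *Trex1*, an exonuclease that clears stray DNA, with 54.3 and 112. *Parp1*, the sensor of strand breaks, was lower, with 50.6 and 33.2 FPKM, as were the lesion-bypass polymerase *Poli* (7.99 and 4.95) and the stress gene *Gadd45b* (1299 and 764). In nucleotide excision repair, the ultraviolet damage sensor *Ddb2* had 19.2 FPKM in PBS and 10.6 in α-DR3, and *Gtf2h3*, of the TFIIH complex, had 19.7 and 11.6. *Xpc*, named here after its values were seen because its product binds that of *Rad23b*, was lower (6.85 and 4.34), so the ratio of *Rad23b* to *Xpc* was 1.83 in PBS and 4.81 in α-DR3. *Ube2t*, the conjugating enzyme that serves *Fancl*, was lower too, with 9.23 and 4.48 FPKM, and the ratio of *Fancl* to *Ube2t* was 2.24 in PBS and 7.66 in α-DR3. In both pathways these direct partners thus had opposite directions.

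**Figure D3:**
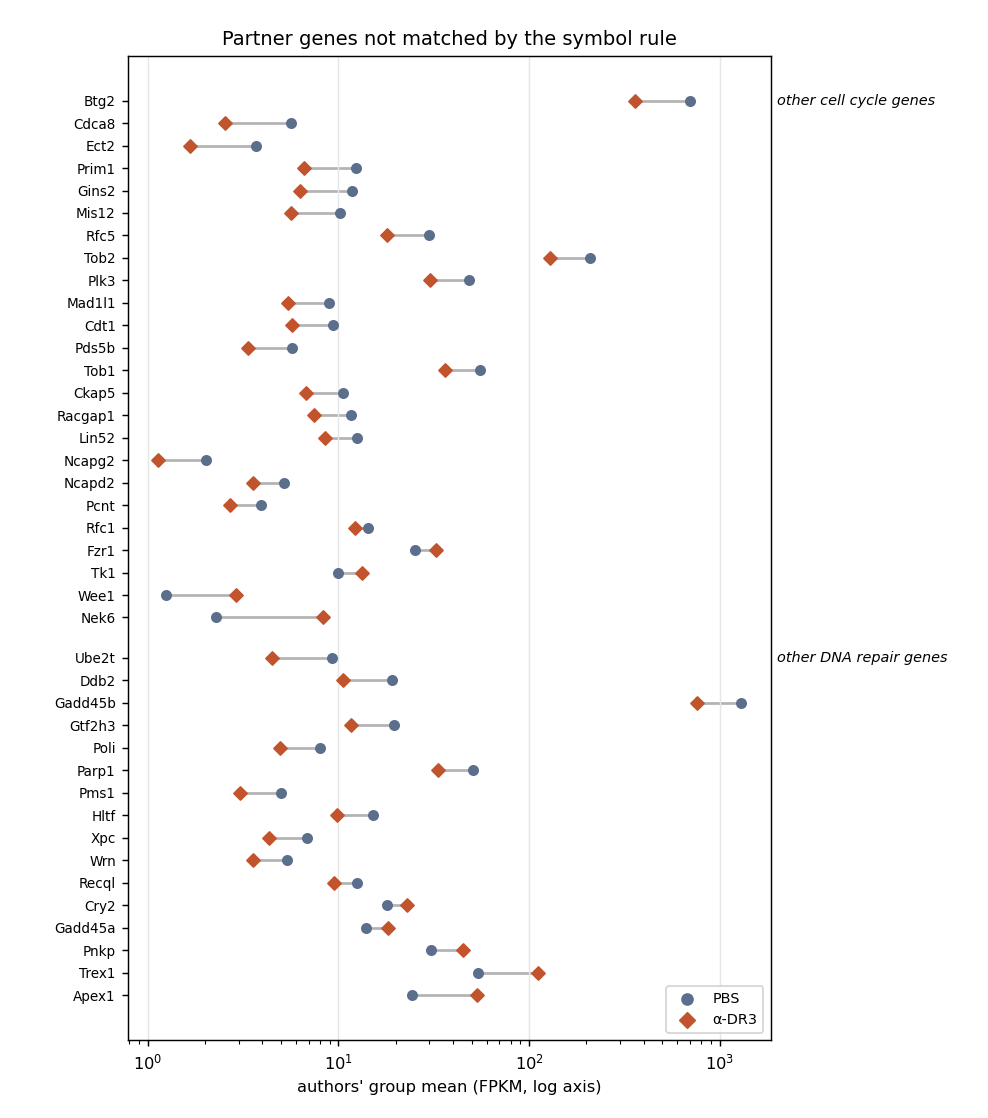
Authors' group means in FPKM (horizontal log axis) of the 24 listed cell cycle genes and 16 listed DNA repair genes that the symbol rule did not match (rows), with circles for PBS and diamonds for α-DR3, each the authors' mean of 2 libraries. Diamonds lie left of circles for 20 and 11 genes, and *Nek6* has the widest gap to the right, followed by *Wee1*, *Apex1* and *Trex1*.

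Markers of other cell types differed between the groups as well. Of 20 markers of ILC3s 12 were listed, 8 higher (66.7%, against 54.6% of all listed genes) and 4 lower. The lower ones included *Ncr1*, a receptor of part of the ILC3s, with 460 FPKM in PBS and 279 in α-DR3, and the higher ones *Ccr6*, a receptor of another part, with 29.45 and 68.3. All 13 listed markers of myeloid and dendritic cells, out of 38, were higher, with summed means of 165 FPKM in PBS and 350 in α-DR3. Most of both sums came from *Ctss* (102 FPKM in PBS and 160 in α-DR3) and *Zbtb46* (42.3 and 71.4). Each of the other markers was under 5 FPKM in PBS. Of these *Lyz2*, the lysozyme gene of macrophages, had 4.09 and 37.9 FPKM. All 6 listed of 23 epithelial and stromal markers were higher, with sums of 9.33 and 24.5 FPKM. Of 18 markers of B and T cells 2 were listed, *Cd79b* higher and *Cd28* lower. The sort gate took cells without lineage markers, which the study gives for its flow cytometry as CD3, B220, CD11b and CD11c, so T, B and most myeloid cells should have been removed by it. Some transcripts of the marker lists were nonetheless of the size of the cell cycle genes themselves. Markers missing from the table, epithelial ones among them, were not analysed here, and the part of these cells in the differences above was not tested.

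The number of genes past 1.5-fold changed with the scale, whereas a direction can change only when the groups are rescaled against each other. The first lower gene to turn would be *Smc2*, if the α-DR3 means were raised 1.34-fold, and the first higher gene *Anapc2*, if they were lowered 1.42-fold. FPKM takes no account of a change in the few most abundant transcripts, and *Il22* alone made up 16.0% of the summed FPKM of listed genes in PBS and 29.0% in α-DR3. When the α-DR3 means were divided by the median ratio over listed genes (1.3), 30 genes were lower past 1.5-fold (76.9%), against 44.3% of the whole table. On the higher side 1 gene, *Ccnd1*, remained past it (2.56%), against 16.3%. Each rescaling that was run lowered the α-DR3 means, so a larger number of lower genes followed from how it was built. The factor came from listed genes alone, which were selected for a difference. A rescaling that raises the α-DR3 means, and so could make fewer genes lower, was not run.

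**Figure D4:**
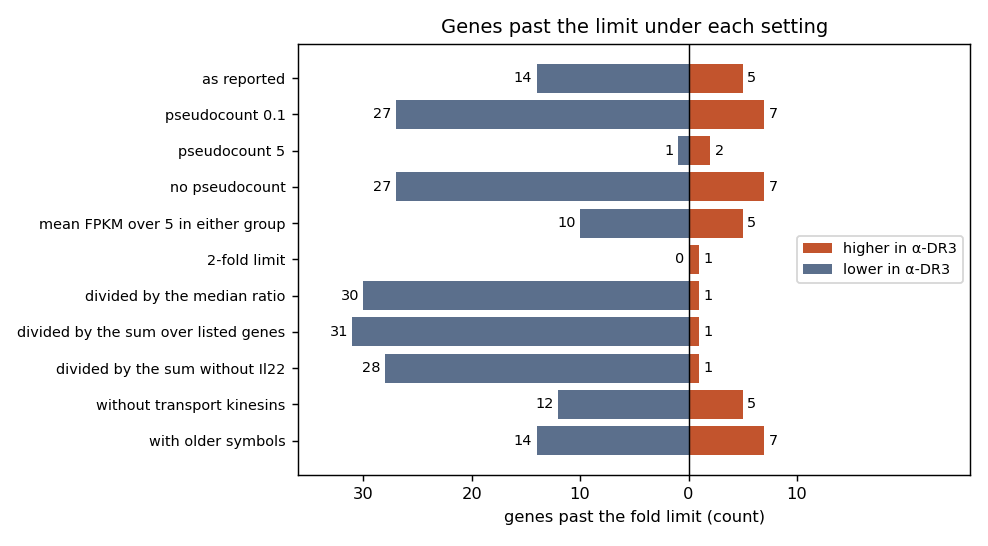
Number of the 39 genes past the fold limit (horizontal axis, counts to either side of 0) that were higher (orange, right) or lower (blue, left) in α-DR3 under each setting (rows), 43 genes in the last row. The row filtered at 5 FPKM covers 25 genes, and the row without transport kinesins leaves out *Kif21b* and *Kif5c*. Lower genes outnumber higher ones in all rows except those with a pseudocount of 5 (1 and 2) and with a 2-fold limit (0 and 1).

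The 30 genes known only by symbol cover the same roles, and the list is not complete. They include *Ccnd2* and *Ccne1* of G1, *Cdc6*, *Cdc45*, *Mcm2*, *Mcm5* and *Pole* of replication, *Cdc20*, *Anapc1*, *Kif11*, *Kif20a* and *Top2b* of mitosis, *Brca1*, *Ercc1*, *Fance*, *Msh4*, *Msh5*, *Msh6* and *Rad51c* of repair, and *Cdk9* and *Cdk12* of transcription. Others were *Cdk5rap3*, *Cenpv*, *Kif19a*, *Kif1a*, *Kif3a*, *Kif5b*, *Mcm3ap* and *Poldip2*, several of which share a prefix rather than a role with the rest. None of them was in the deposited table, so no level is given for them.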

How the data were processed

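Polyadenylated RNA of sorted ILC3s was sequenced in 2 libraries a group. According to the study's methods and the submitters' processing notes, the authors mapped paired-end reads to GRCm38.p5 with STAR 2.5, quantified genes with RSEM 1.2 on GENCODE M16 and compared the groups with edgeR 3.18.1. The deposited table gives the authors' mean FPKM of each group, 1 mean log2 CPM a gene over all libraries and a gene length in bases. Its fitted fold changes, likelihood ratios, p-values and FDR are the authors' comparison and were not used. All 2179 genes were under the p limit of 0.05 and over 1 FPKM in either group. The depth of a library is unknown.

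Differences were taken as log2(FPKM + 1), α-DR3 minus PBS, and genes were called past 1.5-fold. With 1 mean a group no test was run. The rule was to name all 39 listed genes that matched the symbol rule and of each partner list at most the 8 largest differences past 1.5-fold over 5 FPKM (16 genes). Values and names of a few genes are not reported here, though the counts, sums and medians include them. Members and lists were chosen with earlier results of these data known. All 39 identifiers were found in GENCODE M21, on the same build, which gave the coordinates. Promoters came from RefSeq on GRCm38.p6. The alternatives were pseudocounts of 0.1, 5 and none, a filter at 5 FPKM, a limit of 2-fold and 2 rescalings. A sum without *Il22* and the 4 older symbols were added after seeing the data. Python 3.11.15, numpy 2.4.6, pandas 2.3.3 and matplotlib 3.10.9 were used.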

Additional observations from a re-analysis of the deposited data

How the results depend on the processing

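No direction of the 55 genes chosen by the naming rule reversed, but a pseudocount or filter cannot turn a direction and each rescaling lowered the α-DR3 means, so that no lower gene could turn. No paired analysis was possible because the deposited table, the source of every value here, holds group means alone. The single-library values of the study's supplement were not used, so no library was left out in turn. With a pseudocount of 0.1 (all listed genes: 36.8% higher and 38.1% lower past 1.5-fold), 27 genes were lower past 1.5-fold and the median was -0.67, with medians of 0.62 for G1, -0.66 for mitosis, -0.73 for the centrosome and -0.67 for repair. With none (37.0% and 38.3%), 27 genes and 10 repair partners were lower, the median was -0.71, and those medians were 0.63, -0.68, -0.75 and -0.69. With a pseudocount of 5 (16.7% and 13.2%), 1 gene was lower and 2 higher, 4 cell cycle and 3 repair partners were lower and 1 cell cycle partner higher, the median was -0.31, and the medians were -0.37 for DNA synthesis, -0.19 for mitosis, -0.28 for the centrosome, -0.32 for repair and -0.44 for other Cdk kinases. Over 5 FPKM (28.8% and 32.4%), 1 cell cycle partner was higher. At 2-fold (13.3% and 5.19%), 1 gene and 1 cell cycle partner were higher and 0 genes and 0 partners of either list lower.

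Rescaling to the median ratio shifted all α-DR3 values by 0.38 on the log2 scale before the pseudocount, with 16.3% of the whole table then higher and 44.3% lower past 1.5-fold. It gave 1 gene higher and 30 lower, 1 cell cycle partner higher, 19 cell cycle and 11 repair partners lower, a median of -0.82, and medians of 0.22 for G1, -0.70 for mitosis, -0.81 for the centrosome, -0.88 for repair and -1.02 for other kinases. Rescaling to the sum (1.41; of all listed genes 13.4% higher, 44.9% lower) gave 1 and 31 genes, 1 partner of each list higher, 20 and 11 lower, a median of -0.91, and medians of 0.12 for G1, -0.96 for DNA synthesis, -0.74 for mitosis, -0.89 for the centrosome, -0.96 for repair and -1.12 for other kinases. The sum without *Il22* (1.19; 20.7% and 43.4%) gave 1 and 28 genes, 19 and 11 partners lower, a median of -0.73, and medians of 0.34, -0.63, -0.72 and -0.78 for G1, mitosis, centrosome and repair. These factors come from listed genes alone, which were selected for a difference, and not from all expressed genes. The shifts follow from how each setting is built. Of 371 values of single genes, 167 moved by over 1.5 times or across the limit. The depth of a library is unknown, and by mean log2 CPM *Cenpi* (1.68), *Cdk20* (1.85) and *Kif5c* (1.86) rest on the fewest reads of the cell cycle and DNA repair genes.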
